A study of Mus musculus with 2 samples.

Results

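The stathmin family of the mouse has 4 genes, Stmn1, Stmn2, Stmn3 and Stmn4, whose products bind tubulin dimers and regulate how microtubules grow and shrink. The members were chosen by symbol, matched to Ensembl gene identifiers through GENCODE M21, and all 4 were found among the 43346 Ensembl genes of both gene tables. Their RNA was measured in midbrain of B6NCrl mouse embryos at day 16.5, as total RNA longer than 200 nucleotides with 10 ng of input and ERCC spike-in sequences. There was 1 group of 2 biological replicates. Each was a pool of male and female embryos, both carried the same donor identifier, and no treatment or mutation is named in the labels. The pool of replicate 2 held 37 embryos; the number for replicate 1 is not given. Such a design holds no comparison between conditions, so values are given for each library, as mean ± SD (n = 2) and without a p-value.

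Stathmin proteins hold tubulin dimers in a long helix, which lowers the pool of free tubulin and favours the shrinking of microtubules, and phosphorylation of their serines weakens that hold. Stmn1 (stathmin, Op18) is cytosolic and is made in dividing cells as well as in neurons. Stmn2 (SCG10), Stmn3 (SCLIP) and Stmn4 (RB3) are mostly neuronal and carry an additional N-terminal stretch with palmitoylated cysteines that attaches them to Golgi and vesicle membranes, from which they reach growth cones.

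The part of the family that all members share is shown first, because it defines them as 1 family and bears on how far reads could be divided among them. In the leading transcript of each gene, the tubulin-binding region contains a coding exon of 192 bases. It is exon 4 of Stmn1 (chr4:134472804-134472995, + strand), exon 4 of Stmn2 (chr3:8554792-8554983, + strand), exon 4 of Stmn3 (chr2:181307216-181307407, - strand) and exon 5 of Stmn4 (chr14:66357846-66358037, + strand). The sequences are from the GENCODE M21 transcripts, coordinates are on GRCm38, and capitals mark the bases that are the same in all 4 genes.
Stmn1: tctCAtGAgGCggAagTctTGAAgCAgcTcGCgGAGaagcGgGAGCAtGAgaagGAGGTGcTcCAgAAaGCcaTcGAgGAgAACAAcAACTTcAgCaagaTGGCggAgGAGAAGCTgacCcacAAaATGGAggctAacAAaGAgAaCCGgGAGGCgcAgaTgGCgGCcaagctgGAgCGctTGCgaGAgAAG
Stmn2: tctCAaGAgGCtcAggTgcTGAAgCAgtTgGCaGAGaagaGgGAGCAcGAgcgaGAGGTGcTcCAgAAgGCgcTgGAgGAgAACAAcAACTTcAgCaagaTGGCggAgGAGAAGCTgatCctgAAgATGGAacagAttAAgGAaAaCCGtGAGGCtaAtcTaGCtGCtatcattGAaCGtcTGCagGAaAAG
Stmn3: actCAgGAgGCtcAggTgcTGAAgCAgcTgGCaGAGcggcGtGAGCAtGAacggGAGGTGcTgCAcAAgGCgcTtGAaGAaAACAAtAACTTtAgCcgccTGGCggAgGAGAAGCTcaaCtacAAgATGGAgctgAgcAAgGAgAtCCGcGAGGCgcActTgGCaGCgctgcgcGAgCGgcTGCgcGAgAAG
Stmn4: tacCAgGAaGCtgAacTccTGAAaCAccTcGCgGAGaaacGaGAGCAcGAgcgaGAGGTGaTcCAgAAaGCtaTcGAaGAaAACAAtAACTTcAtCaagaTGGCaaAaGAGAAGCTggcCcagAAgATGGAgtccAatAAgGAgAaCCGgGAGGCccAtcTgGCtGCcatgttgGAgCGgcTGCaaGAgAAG
Of the 192 bases, 111 (57.8%) were the same in all members. The pair closest in this exon was Stmn1 and Stmn4 with 79.2% identity, and the pair furthest apart was Stmn3 and Stmn4 with 69.8%. Stmn1 and Stmn2 had an identity of 75.0%, with an unbroken run of 43 identical bases.

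A second exon, of 96 bases, is what separates the membrane-bound members from Stmn1. It is exon 2 of Stmn2 (chr3:8541841-8541936, + strand), exon 2 of Stmn3 (chr2:181309147-181309242, - strand) and exon 3 of Stmn4 (chr14:66355586-66355681, + strand), and no exon of this length occurs in Stmn1-201. Capitals mark the bases that are the same in the 3 genes.
Stmn2: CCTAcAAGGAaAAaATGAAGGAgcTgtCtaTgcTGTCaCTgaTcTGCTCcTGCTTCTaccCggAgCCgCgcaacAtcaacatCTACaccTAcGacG
Stmn3: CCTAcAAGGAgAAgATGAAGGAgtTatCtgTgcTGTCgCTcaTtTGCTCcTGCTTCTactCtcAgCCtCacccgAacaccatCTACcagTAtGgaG
Stmn4: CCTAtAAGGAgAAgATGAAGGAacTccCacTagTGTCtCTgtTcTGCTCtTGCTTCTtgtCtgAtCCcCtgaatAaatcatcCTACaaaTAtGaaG
Of the 96 bases, 55 (57.3%) were shared by the 3 genes, and the pair Stmn2 and Stmn3 was the closest at 75.0%. The exon holds the 2 neighbouring cysteine codons that the cell uses for palmitoylation, codons 22 and 24 of Stmn2-201, 22 and 24 of Stmn3-201 and 20 and 22 of Stmn4-201. The coding sequence of Stmn1-201 has 149 codons and no cysteine codon. The other leading transcripts code for 179 (Stmn2), 180 (Stmn3) and 189 (Stmn4) amino acids.

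A serine codon followed by a proline codon, the minimal site of the cyclin-dependent and MAP kinases, occurs at codons 25 and 38 of Stmn1-201 and 62 and 73 of Stmn2-201, positions where these kinases are known to act. Stmn3-201 has 4 such pairs, at codons 60, 65, 68 and 73. The coding sequences of Stmn4-201, Stmn4-202 and Stmn4-203 have none. A match of this kind describes the sequence and does not show that a serine is phosphorylated.

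Expected counts, the deposited estimates of reads per gene, summed to 31830355 in replicate 1 and 36576263 in replicate 2, of which 475145 and 816733 fell on ERCC sequences. TPM, the deposited abundance per effective length, scaled to 1 fixed total per library, can be compared between genes, whereas an expected count also grows with transcript length. At these depths 1 read on a transcript of 1000 effective bases corresponded to 0.0540 and 0.0464 TPM, so that counting error was small for every member. Intervals are at 95% and describe counting error only: without molecular identifiers, several reads can come from 1 molecule. The tissue is a mixture: markers of neurons summed to 4542 and 4572 TPM, of progenitors and dividing cells to 1864 and 2096, and of red cells to 12748 and 11248, and in such bulk RNA fewer cells of a type and less RNA per cell cannot be told apart.

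Stmn1 had the highest level of the family by a wide margin. The gene (ENSMUSG00000028832.7, chr4:134468320-134473843, + strand) spans 5524 bases, the shortest of the 4. It stood at 7227.79 TPM in replicate 1 and 6474.52 TPM in replicate 2, from 128103 and 133695 expected counts (6851 ± 533 TPM). Its rank by mean TPM was 3 of 21461 nuclear protein-coding genes, where the median protein-coding gene was at 5.25 and 5.21 TPM. The protein-coding genes next to it in level were the imprinted Nnat at 8576.40 and 7712.65 TPM and the cytoskeletal actin Actb at 5857.32 and 5416.23 TPM.

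Stmn3 was the second by TPM. It (ENSMUSG00000027581.12, chr2:181306459-181314500, - strand, 8042 bases) stood at 1291.27 and 1441.43 TPM, from 24776 and 32226 expected counts (1366 ± 106 TPM). Stmn2 (ENSMUSG00000027500.10, chr3:8509360-8561606, + strand, 52247 bases), the gene of the growth-cone protein SCG10, stood at 1116.00 and 1166.60 TPM, from 40188 and 48874 expected counts. Stmn4 (ENSMUSG00000022044.10, chr14:66344296-66361680, + strand, 17385 bases) was the lowest member, at 722.07 and 744.85 TPM from 15830 and 19082 expected counts (733.5 ± 16.1 TPM). The rank by mean TPM among nuclear protein-coding genes was 35 for Stmn3, 53 for Stmn2 and 102 for Stmn4. Even the lowest of them lay at percentile 99.5 of those genes by level.

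The order by TPM was Stmn1, Stmn3, Stmn2, Stmn4 in both libraries, and the values of neighbours in this order did not overlap. Stmn1 exceeded Stmn3 by 5.60-fold in replicate 1 and 4.49-fold in replicate 2 (log2 2.33 ± 0.22). The smallest step lay between Stmn3 and Stmn2, at 1.16-fold and 1.24-fold (log2 0.26 ± 0.07). With counting error alone, this log2 ratio was bounded by 0.19 and 0.23 in replicate 1 and by 0.28 and 0.33 in replicate 2, above 0 in each. Stmn2 exceeded Stmn4 by 1.55-fold and 1.57-fold (log2 0.64 ± 0.01), the most even ratio between the pools. From the highest member to the lowest, Stmn1 exceeded Stmn4 by 10.0-fold and 8.69-fold.

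The step between Stmn3 and Stmn2 depends on length. Stmn2-201 has 2073 bases and Stmn3-201 has 1136, and by expected counts Stmn2 was the higher of them in both libraries (log2 of Stmn3 over Stmn2, -0.65 ± 0.07). More reads therefore came from Stmn2, while per unit of length Stmn3 was more abundant.

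**Figure D1:**
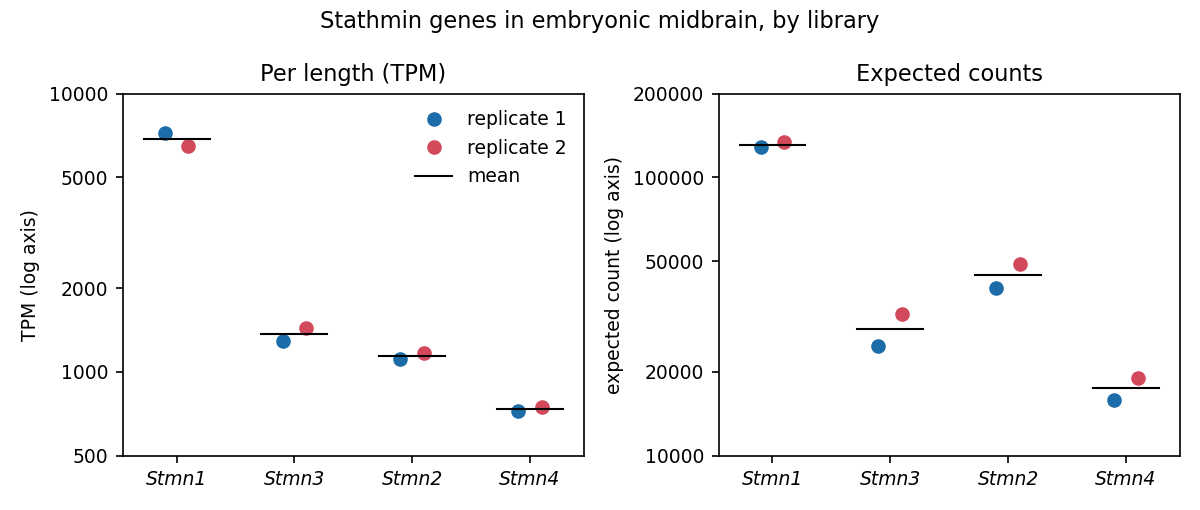
Level of each stathmin gene in both libraries, in TPM (left) and in expected counts (right), both on log axes, with a point for each library and a bar for the mean. By TPM the genes fall in the order Stmn1, Stmn3, Stmn2, Stmn4, and by expected counts Stmn2 lies above Stmn3.

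Summed over the family, the 4 genes held 10357 TPM in replicate 1 and 9827 in replicate 2, or 1.08% and 1.04% of the TPM of all Ensembl genes (1.06% ± 0.0257). Stmn1 made up 69.8% and 65.9% of the family's TPM (67.8% ± 2.76). The share of Stmn3 was 13.6% ± 1.56, that of Stmn2 was 11.3% ± 0.775 and that of Stmn4 was 7.28% ± 0.430. The cytosolic member thus outweighed the 3 membrane-bound members together, by 2.31-fold in replicate 1 and 1.93-fold in replicate 2 (7227.79 against 3129 TPM, and 6474.52 against 3353 TPM). By expected counts the share of Stmn1 was 59.2% and that of Stmn2 was 20.1%.

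For scale, the transcripts of the family's binding partner, tubulin, were summed over 5 alpha-tubulin genes and 7 beta-tubulin genes. Alpha tubulins reached 17700 and 17512 TPM, 1.71 and 1.78 times the family's sum. Beta tubulins reached 8082 and 8452 TPM, 0.780 and 0.860 times that sum. These are ratios of RNA and not of protein.

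The isoform tables show how each level is made up, as the percent of a gene's TPM assigned to each transcript. Stmn1 has 5 annotated transcripts, and Stmn1-201 took 99.0% of its TPM in both libraries. Stmn2 has 4, and Stmn2-201 took 97.15% and 96.94%; most of the rest went to Stmn2-203, a short processed transcript without a coding sequence, with 2.10% and 2.27%. Stmn3 has a single annotated transcript. A leading transcript at 95% or more in both libraries was found in 12.7% of the 8248 genes with at least 2 transcripts and 5 TPM, and in 2 of the 3 such members, with a median leading share of 67.6% over those genes.

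Stmn4 was the member whose RNA was divided among several coding forms. It has 9 annotated transcripts, 3 of which held at least 5% of its TPM. Stmn4-201 led with 65.25% in replicate 1 and 68.33% in replicate 2 (471.13 and 508.95 TPM). Stmn4-203 followed with 23.38% and 21.70% (168.83 and 161.66 TPM), and Stmn4-202 with 9.76% and 8.85% (70.45 and 65.94 TPM). The order was the same in both libraries, and coding transcripts summed to 98.64% and 99.05%. Retained-intron transcripts took 1.14% and 0.79% of Stmn4 and 0.75% and 0.78% of Stmn2.

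Stmn4-203 differs from Stmn4-201 in the coding sequence by an exon of 81 bases, exon 4 of that transcript (chr14:66356269-66356349, + strand, GRCm38), between the membrane-anchoring exon and the tubulin-binding region. The exon is shown in capitals with 15 bases of the flanking exons, above the same junction without it.
Stmn4-203: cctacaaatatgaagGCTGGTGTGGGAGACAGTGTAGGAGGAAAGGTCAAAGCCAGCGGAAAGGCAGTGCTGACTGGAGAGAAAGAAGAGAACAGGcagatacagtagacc
Stmn4-201: cctacaaatatgaagcagatacagtagacc
The exon adds 27 codons in frame, for 216 in all, and among them the cysteine codons 39 and 43. The transcripts that contain it summed to 23.50% of the TPM of Stmn4 in replicate 1 and 21.78% in replicate 2 (22.6% ± 1.22).

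Stmn4-202 differs at the other end of the protein. Between the 192-base exon and the last exon it includes an exon of 53 bases that holds a stop codon. The last exon starts at the same base as in Stmn4-201 but is untranslated in Stmn4-202. This transcript codes for 176 amino acids, 13 fewer than Stmn4-201. The coding ends are shown with the stop codon in capitals, at chr14:66361075-66361134 for Stmn4-201 and chr14:66358679-66358699 for Stmn4-202 (+ strand, GRCm38).
Stmn4-201: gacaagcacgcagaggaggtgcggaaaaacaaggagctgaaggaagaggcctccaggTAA
Stmn4-202: gagccgcctgctgcgcggTGA
Transcripts with the 53-base exon summed to 9.31% ± 0.643 of the TPM of Stmn4, and transcripts with the longer coding end (Stmn4-201 and Stmn4-203) to 88.63% and 90.03%. The annotated transcript that would join both alternative exons, Stmn4-204, was listed at 0 in both libraries, with deposited upper credibility bounds of 5.81 and 4.31 TPM. These exons lie 401 bases apart in Stmn4-204. The effective lengths in the tables equal the length less 99 bases for every transcript longer than that, as for reads of 100 bases counted singly. A read of that length cannot contain both exons, so the assignment to Stmn4-204 rests on the estimate and not on reads that show the link.

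**Figure D2:**
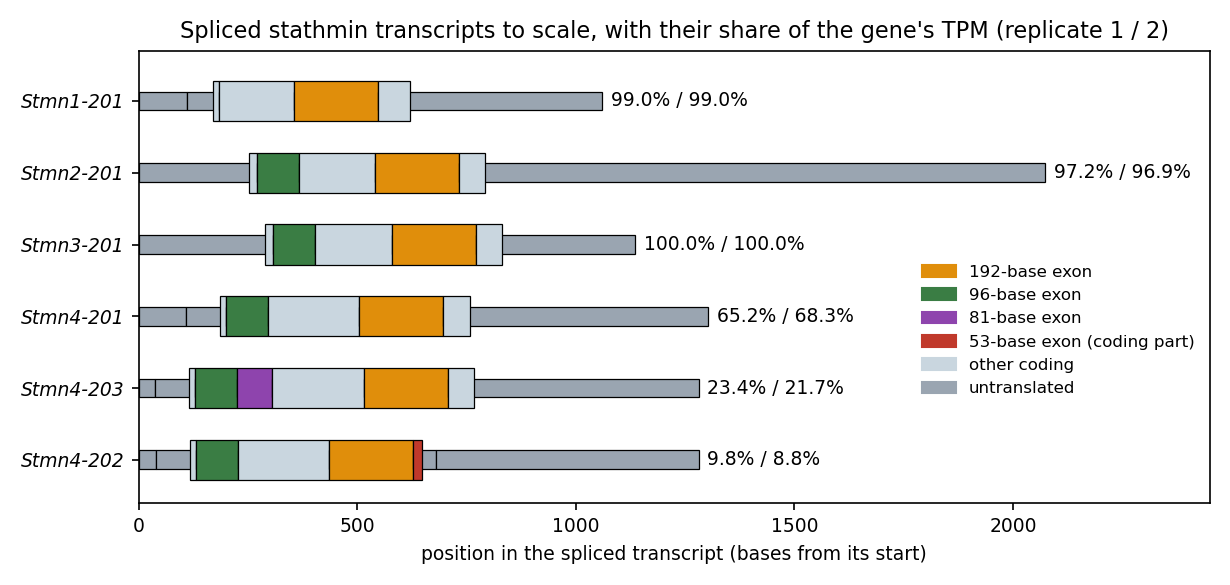
Leading transcripts of the stathmin genes drawn to scale from their first base, with coding parts tall and untranslated parts low, and the percent of the gene's TPM in replicate 1 and replicate 2 at the right. The 192-base exon is present in every transcript drawn, the 96-base exon in all but Stmn1-201, the 81-base exon only in Stmn4-203 (23.4% and 21.7%) and the 53-base exon only in Stmn4-202 (9.8% and 8.8%).

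The sequence that Stmn1 shares with other genes bears on how its reads were divided. Of the 1030 words of 31 bases in Stmn1-201, 439 (42.6%) also occur in another annotated gene. Among them, 389 occur in Gm11223, a processed pseudogene (ENSMUSG00000046341.5, chr4:69925630-69926079, - strand), and 37 in Gm23634, a microRNA gene that overlaps Stmn1 itself. With words of 100 bases, 251 of 961 (26.1%) were shared, all with Gm11223. Gm11223 was assigned 72.83 and 67.72 TPM from 473.02 and 512.48 expected counts, which is 1.01% and 1.05% of the TPM of Stmn1. Stmn1 had 128103 and 133695 expected counts, so its level would rise by less than that percent if those reads were its own. How many reads of Gm11223 were assigned to Stmn1 cannot be seen, and the level of Gm11223 itself is uncertain for the same reason. Between members, Stmn1 and Stmn2 shared 13 words of 31 bases and none of 100, and Stmn3-201 and Stmn4-201 shared no word of 31 bases with any other gene.

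Among other annotated genes of related name or sequence, Stmnd1, a gene with a stathmin domain on chromosome 13, was listed at 0 and 0.07 TPM, from 0 and 2 expected counts. The microRNA gene Gm23634 (chr4:134468364-134468454, + strand) overlaps the first exon of Stmn1-201, with which it shares 37 words of 31 bases. It is therefore not a separate copy. Its listed effective length is 0, so it could receive no value.

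Between the pools, every member differed by less than 1.2-fold. On expected counts scaled by TMM, Stmn1 was lower in replicate 2, by 1.09-fold (log2 -0.12, counting interval -0.13 to -0.11). Stmn3 was higher in replicate 2 by 1.15-fold (log2 0.20, interval 0.17 to 0.22). Stmn2 and Stmn4 were higher by smaller amounts, log2 0.10 (0.08 to 0.12) and log2 0.09 (0.06 to 0.12). The 3 neuronal members therefore stood slightly higher in replicate 2 and Stmn1 slightly lower, each by more than counting error. None of the 4 reached a 1.2-fold difference, where 18.8% of the 14412 genes averaging 50 or more expected counts did, and none reached 2-fold, where 0.645% did. The median absolute log2 ratio was 0.12 over those genes and 0.08 over the 82 genes that had 1000 TPM or more in each library, of which 6.10% reached 1.2-fold. Stmn1 and Stmn3, by the size of their ratio, lay above the median of those abundant genes, as did Stmn2 (0.10), and Stmn4 lay close to it. Scaled by ERCC counts, every ratio falls by 0.60 and all 4 members, like most genes, become lower in replicate 2 (log2 -0.72 for Stmn1, -0.50 for Stmn2, -0.40 for Stmn3 and -0.51 for Stmn4).

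Markers of cell types differed between the same pools, with ratios again on TMM-scaled expected counts. Over all 14412 genes with enough counts, 18.8% were at least 1.2-fold apart either way. Of 10 markers of progenitors and dividing cells, 6 were lower in replicate 2 by at least 1.2-fold and 2 were higher, Hes5 and Fabp7, with a median log2 of -0.38. Because Fabp7 is the most abundant of them, their summed level was nevertheless 1864 TPM in replicate 1 and 2096 TPM in replicate 2. Of 8 neuron markers, 1 was higher by 1.2-fold, the synaptic gene Snap25 (147.38 and 203.56 TPM). None was lower by 1.2-fold, and the median was -0.02. Dcx had the lowest ratio of them, log2 -0.24 (282.18 and 219.20 TPM). Of the 7 astrocyte markers with enough counts 6 were higher and 1 was lower, with a median of 0.58 and sums of 669 and 1092 TPM. The medians were 0.28 for the oligodendrocyte lineage (6 markers, 132 and 164 TPM in sum), 0.16 for microglia (6 markers, 77.5 and 95.5 TPM), -0.05 for endothelium (5 markers, 227 and 218 TPM) and -0.16 for red cells (4 markers). No marker was at 0, and the lowest was the astrocyte filament gene Gfap at 0.23 and 1.02 TPM. Their part in the ratios of the members was not tested.

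**Figure D3:**
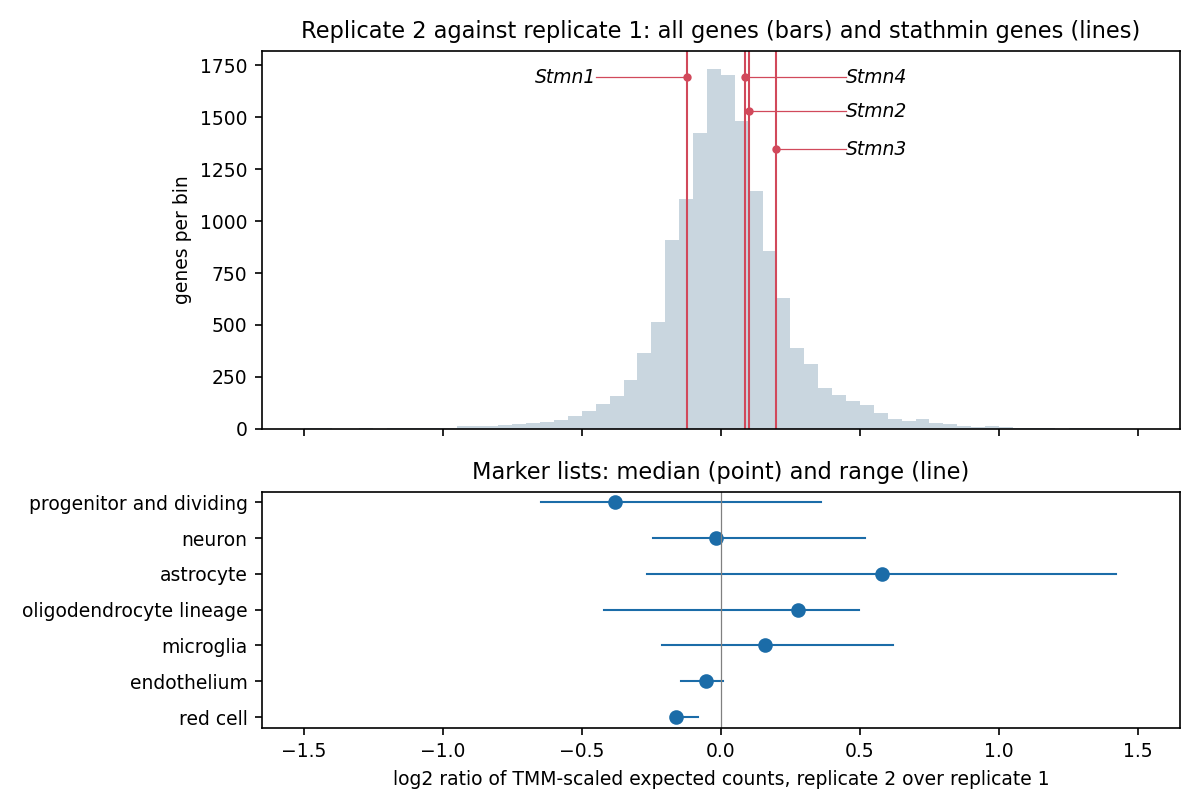
Log2 ratio of TMM-scaled expected counts of replicate 2 over replicate 1, for all genes with a mean count of at least 50 (bars, 0.05 per bin, upper panel, within 1.5 either way) with the stathmin genes as lines, and the median and range of the cell type marker lists (lower panel). Stmn1 lies at -0.12 and the other members between 0.09 and 0.20, where the quartiles of all genes are -0.11 and 0.13. The astrocyte list has a median of 0.58 and the progenitor list one of -0.38.

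The genes that act on stathmins were present throughout the pathway, at lower levels than the members. Of 15 kinases known to phosphorylate stathmins or act upstream of them, all reached 1 TPM in both libraries, as 35.1% of Ensembl genes and 62.1% of protein-coding genes did. Their median level was 76.9 and 83.7 TPM and their sum was 1197 ± 13.5 TPM. The highest were the catalytic subunits of protein kinase A, Prkaca at 189.28 and 191.03 TPM and Prkacb at 181.35 and 188.18. Mapk8 (JNK1), which acts on SCG10 and is named for that role and not by the naming rule, stood at 28.54 and 25.58 TPM. On TMM-scaled expected counts, none of the 15 kinases was higher in replicate 2 by 1.2-fold and 2 were lower. These were the mitotic kinases Cdk1 (41.45 and 26.40 TPM) and Aurkb (13.05 and 10.55 TPM), named after their values were seen. On those counts they were lower by 1.28-fold and 1.33-fold. Of all 14412 genes with enough counts, 18.8% were at least 1.2-fold apart either way. Cdk1 is also among the markers of dividing cells above.

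All 4 phosphatase catalytic subunits reached 1 TPM in both libraries, as 62.1% of protein-coding genes did. Their sum was 691.2 ± 10.0 TPM. Ppp1ca of protein phosphatase 1 led at 442.79 and 426.04 TPM, ahead of Ppp3ca of calcineurin at 111.07 and 119.22 and Ppp2ca of protein phosphatase 2A at 103.82 and 101.87. None of the 4 differed between the pools by 1.2-fold on TMM-scaled expected counts, where 18.8% of the 14412 genes with enough counts did. Of the 3 palmitoyl transferases listed, the enzymes that attach the lipid to the cysteines of the 96-base exon, Zdhhc3 was the highest at 70.39 and 68.76 TPM. Zdhhc7 stood at 26.01 and 24.43 TPM and Zdhhc15 at 3.71 and 3.50 TPM. The sum of these 3 was 98.4 ± 2.42 TPM, against 3241 ± 158 TPM for the 3 genes with that exon. These are sums of RNA and not of protein or enzyme activity, and other palmitoyl transferases were not listed.

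Of 7 binding partners and regulators of stathmins or their RNA, all reached 1 TPM in both libraries, as 62.1% of protein-coding genes did. Their sum was 266.2 ± 24.6 TPM. Tardbp (TDP-43), which is known to keep a cryptic exon out of human STMN2 RNA, was the highest at 165.75 and 137.45 TPM, followed by Siva1 at 35.56 and 35.14 and Stat3 at 31.97 and 32.24. Rest, the repressor that holds Stmn2 silent outside neurons and is named for that role, stood at 4.06 and 4.12 TPM. On TMM-scaled expected counts, none of the 7 differed by 1.2-fold between the pools, where 18.8% of the 14412 genes with enough counts did. On that scale the ratio of Tardbp was log2 -0.21, smaller in size than its TPM values give.

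The RNA of other proteins that cut or shorten microtubules was at a lower level than that of the stathmins. Of 11 genes for such proteins, 10 reached 1 TPM in both libraries, as 62.1% of protein-coding genes did. The sum over the list, 191.6 ± 15.1 TPM, was below the level of Stmn4 alone. Kif2a, a kinesin that shortens microtubule ends, stood at 43.90 and 34.68 TPM, and the katanin-like Katnal1 at 36.94 and 35.77. The kinesin gene Kif2b was listed at 0 and 0.02 TPM, from 0 and 1 expected counts. On TMM-scaled expected counts, the severing genes Spast (19.94 and 15.96 TPM) and Fign (21.34 and 16.82 TPM) were lower in replicate 2 by 1.22-fold and 1.28-fold. Both are named after their values were seen. No other gene of this list with enough counts reached 1.2-fold, where 18.8% of all 14412 genes with enough counts did. For Kif2a the 2 measures differ. Its TPM was lower in replicate 2, but its ratio on expected counts was log2 -0.002 (2225 and 2523 expected counts).

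**Figure D4:**
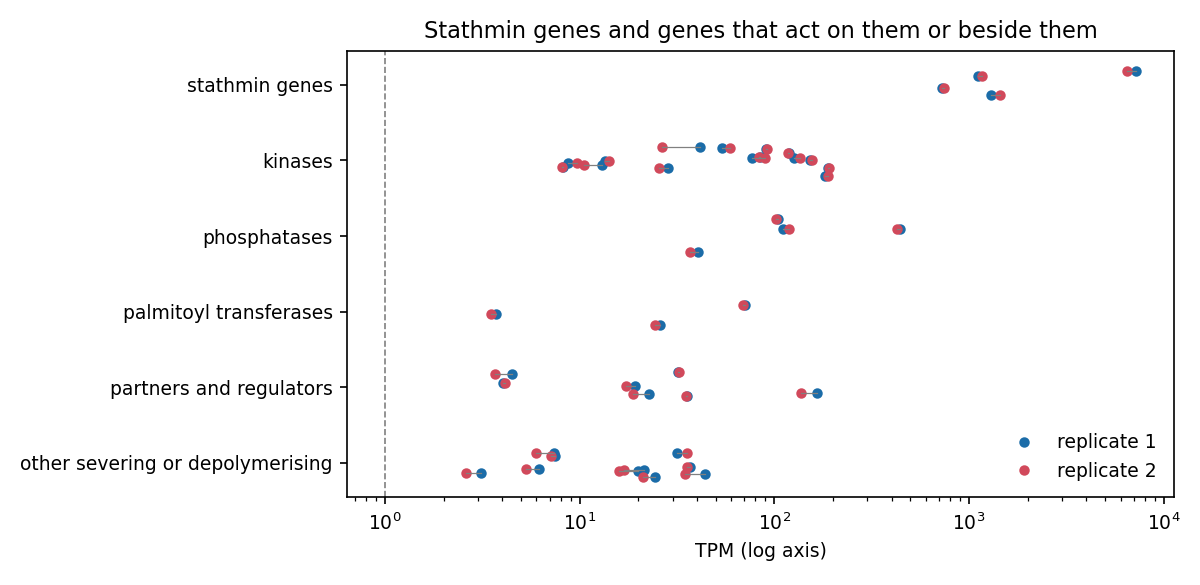
TPM (log axis) of the stathmin genes and of 5 lists of genes that act on them or beside them, with a joined pair of points for each gene, one per library, spread vertically within a list for legibility, and a dashed line at 1 TPM. The stathmin genes lie between 722 and 7228 TPM, above every listed gene (the highest is Ppp1ca at 443 and 426 TPM); Kif2b, with no count in replicate 1, is not drawn.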

How the data were processed

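Total RNA-seq of 2 embryonic midbrain libraries was used, with a gene table and a transcript table for each. Per the deposited readme, alignment was to mm10 and quantification used the GENCODE M4 annotation plus spike-in sequences. Aligner, quantifier, read length and strand setting were not given in the sources used here, so antisense reads cannot be told apart. Per the file headers, expected counts are the authors' estimated reads per feature, where a read that matches several features is divided between them. The authors' TPM values are per effective length, with the same sum in each library, spike-ins included, and their FPKM values are scaled by length and library. The deposited isoform share is a percent of the TPM of the gene. The deposited credibility bounds of TPM, whose level is not stated, were treated as a score.

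Symbols, gene types, exons and sequences came from GENCODE M21 on GRCm38, the assembly of mm10, joined by identifier without version; 884 of 43346 identifiers had no match, and all transcripts of the members had the same length in both releases. For the ratio of one pool to the other, 0.5 was added to expected counts, which were then divided by TMM factors (edgeR 4.0.16, computed on rounded values), in 14412 genes whose mean reached 50; size factors of DESeq2 1.42.0, total counts and ERCC counts were alternatives. No model was fitted. Ratio intervals are exact binomial intervals at 95%. The simulated data used as a check held counting error only, and their ratios were centred on the median gene, so the TMM factors were not tested. Python 3.11.15, numpy 2.4.6, pandas 2.3.3, scipy 1.17.1, matplotlib 3.10.9 and R 4.3.3 were used.

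The members, lists and thresholds were chosen with earlier results of these data known. The naming rule took the 4 members, copies with a stathmin name or shared sequence, the 3 highest genes of each pathway list and those below 1 TPM in both libraries, the genomic and level neighbours of each member, and transcripts at 5% or more; exceptions are named as such, and some genes the rule takes are not reported here. Tubulin genes enter only as sums. Replicates are separate pools per the labels.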

Additional observations from a re-analysis of the deposited data

How the results depend on the processing

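With 1 group no test between conditions could be had, none was run between members, and depth limits genes with few counts, such as Stmnd1. No paired analysis was possible because there is 1 group only. Leaving out a library gives the value of the other one, which with 2 libraries always lies within 1 SD of the mean and says nothing of stability. FPKM rescaled the levels to 4008.89 (Stmn1), 668.175 (Stmn2), 800.115 (Stmn3) and 429.385 (Stmn4) with the order kept; TPM over Ensembl genes only gave 1196.74 for Stmn2 and 769.041 for Stmn4, and posterior mean TPM gave 714.02 for Stmn4. Expected counts, which are not corrected for length, gave family shares of 59.2% (Stmn1), 20.1% (Stmn2) and 7.87% (Stmn4), left 2 of 4 members in their place, turned Stmn3 over Stmn2 to log2 -0.65 and raised Stmn2 over Stmn4 to 1.35; leading shares became 99.33% (Stmn1; 98.99% by posterior mean) and 98.5% (Stmn2). ERCC scaling gave replicate 2 over 1 as log2 -0.72 (Stmn1), -0.50 (Stmn2), -0.40 (Stmn3) and -0.51 (Stmn4), reversing the last 3, because ERCC counts were higher in replicate 2. Genes at 1.2-fold numbered 2713 as reported, 13445 by ERCC scaling, 4873 at a mean count of 10 and 11085 without a filter, and at 2-fold 93, 498, 497 and 4758. At 5 TPM in place of 1, the genes detected went from 3 to 2 palmitoyl transferases, from 7 to 5 partners and regulators and from 10 to 9 severing or depolymerising genes. Posterior mean TPM summed to 1175 for kinases and 673.1 for phosphatases. Each library alone kept the order of the members, with Stmn1 at 7227.79 or 6474.52 TPM.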

Other observations

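Every member stood above its nearest non-overlapping protein-coding gene on either side. Stmn1 stood 259.6-fold above Paqr7 and 1003-fold above Pafah2, its neighbours on either side. Stmn2 has Hey1 at 20.3 TPM on one side and, 895599 bases away, Il7 at 0.10 TPM on the other. Stmn3 lies 5238 bases from Rtel1, a helicase gene on the opposite strand, at 36.4 TPM, and 18423 bases from Gmeb2 at 14.2 TPM. The neighbour nearest to a member in level was Trim35, 32871 bases from Stmn4, at 248.24 and 230.45 TPM, 3.06-fold below it, whereas the receptor gene Adra1a on its other side was at 4.13 TPM.

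Other members had near neighbours in level that overlapped with them across the libraries. Stmn2 at 1141 TPM lay between Gapdh at 1166 and Nrep at 1134, Stmn3 between Jpt1 at 1371 and Marcksl1 at 1355, and Stmn4 between the basigin gene Bsg at 738.7 and the glycolytic Pkm at 732.0.

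The deposited TPM of every member lay above the upper credibility bound given for it in the same table, in both libraries. For Stmn1 in replicate 1 the TPM was 7227.79 and the bounds were 6970 and 7048, with a posterior mean of 7008. The same was found for 703 (38.5%) of the 1828 genes with a mean of at least 100 TPM in replicate 1 and for 634 (34.7%) in replicate 2.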
